A study of Mus musculus with 9 samples.

Results

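The Stat5a-/- line was compared with the wt line across all expressed genes. Of the 9 RNA-seq libraries of the series, the 3 labelled Stat5a-/- and the 3 labelled wt were compared, and the 3 Stat5b-/- libraries entered the shared estimate of the spread and serve as a further reference beside single genes, the chromosomal shift and 1 gene list. All lines were mouse bone marrow cells transformed with BCR/ABLp185, on a C57BL/6N background by the labels, and were grown in the same RPMI medium with serum. The Stat5a-/- line came from mice that lack Stat5a completely, while the wt line and the Stat5b-/- line carry intact Stat5a. There was 1 cell line of each genotype with 3 technical replicates, so that every p-value below measures the spread between libraries of 1 line, and a difference between the genotypes cannot be told apart from any other difference between these lines. The free-text description of the knockout samples calls them wt cell lines, in conflict with their titles and genotype labels, which were used here.

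STAT5A and STAT5B are closely related transcription factors that are encoded side by side and are activated by Janus kinases downstream of cytokine receptors. The BCR/ABL tyrosine kinase keeps them phosphorylated without cytokine, and the p185 form of BCR/ABL transforms B-lineage progenitors. Active STAT5 dimers bind DNA at the palindrome TTCNNNGAA and switch on feedback inhibitors such as Cish and the Socs genes, survival kinases of the Pim family and D-type cyclins. In early B cells, STAT5 also acts downstream of the interleukin-7 receptor.

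The libraries held between 11948136 and 19016396 counted reads, and 13852 genes passed the filter on low counts. Values are normalized CPM, which are counts scaled to library size with TMM factors. A gene was called when edgeR's quasi-likelihood test gave it a Benjamini-Hochberg adjusted p under 0.05 and its absolute log2 fold change above 1, and "rose" and "fell" are used only for called genes. Adjusted p-values below come from this test. Expression of B-lineage genes matched the stated origin: Pax5, Ebf1, Cd79a, Cd79b, Igll1 and Vpreb1 each held over 100 normalized CPM in each of the 6 libraries. Counting used neither strand nor an option for reads with several possible origins, which leaves gene families of near-identical sequence and overlapping genes on opposite strands uncertain.

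The knocked-out gene, Stat5a (ENSMUSG00000004043.14), spans chromosome 11 from 100859351 to 100885169 (GRCm38) and held 48.2, 36.01 and 45.3 normalized CPM in the wt libraries and 11.8, 11.9 and 13.6 in the Stat5a-/- libraries. The knockout libraries all lay below the wt libraries, but 169, 146 and 151 reads on the gene remained in them, and gene-level counts do not show which exons they cover. The log2 fold change was -1.80 (standard error 0.14, edgeR adjusted p = 4.69e-07). Stat5b, its neighbour on chromosome 11, held 107, 103 and 106 in wt and 145, 124 and 156 in Stat5a-/- libraries. The log2 fold change of Stat5b was 0.43 (standard error 0.11, edgeR adjusted p = 0.00942), which is under the fold limit.

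Against wt, 1074 genes rose and 899 fell in the Stat5a-/- line, which are 7.75% and 6.49% of the tested genes. These changes were not spread evenly over the genome. By adjusted p alone, 53.1% of the genes on chromosomes 17, 18 and 19 were higher and 5.5% lower, against 15.8% and 17.6% elsewhere. On chromosomes 17, 18 and 19, 214 of 1472 tested genes rose (14.5%) and 53 fell (3.6%), whereas on all other chromosomes 860 of 12380 rose (6.95%) and 846 fell (6.83%). The 3 Stat5a-/- libraries all lay above the 3 wt libraries for 905 genes on chromosomes 17, 18 and 19, which is 61.5% of them, against 21.3% of the genes elsewhere. They all lay below wt for 7.13% on these chromosomes and 25.7% elsewhere. The chromosomes were singled out with earlier results of these data known, so the contrast between the groups of genes is a description.

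The shift was of similar size on the 3 chromosomes. The median log2 fold change was 0.53 over 677 genes of chromosome 17, 0.43 over 324 genes of chromosome 18 and 0.41 over 471 genes of chromosome 19, which correspond to 1.45-fold, 1.35-fold and 1.33-fold. On chromosomes 1 to 16 and X the medians lay between -0.10 on chromosome 3 and 0.09 on chromosome 6. Of the genes on chromosome 17, 88.5% had a positive log2 fold change, compared with 46.9% of all genes outside the 3 chromosomes.

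Each library showed the same picture. The median deviation of genes on chromosomes 17, 18 and 19 minus that of genes elsewhere was 0.014, -0.016 and -0.0032 (log2) in the wt libraries and 0.49, 0.50 and 0.53 in the Stat5a-/- libraries. The Stat5b-/- libraries had 0.088, 0.061 and 0.0026 in the same measure. Plotting the medians of every chromosome by library set chromosomes 17, 18 and 19 of the Stat5a-/- libraries apart from the points of chromosomes 1 to 16 and X. The small mitochondrial genome, which is not plotted, had a median log2 fold change of 0.59 over 16 tested genes.

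**Figure D1:**
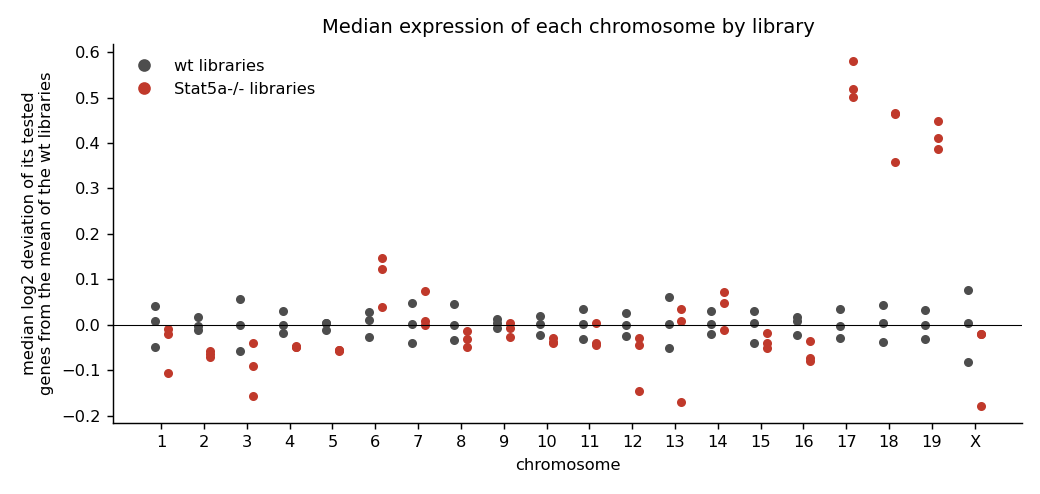
Median log2 deviation of the tested genes of each chromosome (horizontal axis) from the mean of the wt libraries (vertical axis), for the 3 wt libraries (grey points) and the 3 Stat5a-/- libraries (red points). On chromosomes 17, 18 and 19 the Stat5a-/- points sit between 0.36 and 0.58, and on chromosomes 1 to 16 and X all points lie between -0.18 and 0.15.

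The shift was not limited to 1 stretch of a chromosome or to weakly expressed genes. With each chromosome split by position into 4 stretches of equal gene number, the median log2 fold change lay between 0.43 and 0.66 on chromosome 17, between 0.42 and 0.48 on chromosome 18 and between 0.30 and 0.49 on chromosome 19. The highest of these 12 medians was that of the second stretch of chromosome 17, with gene starts from 25844771 to 34629533 and 45 genes called up of 169. This stretch contains part of the major histocompatibility complex, whose genes are described below. With genes split evenly into low, middle and high expression, the median on chromosomes 17, 18 and 19 was 0.36, 0.48 and 0.50, compared with 0.02, -0.06 and -0.03 elsewhere. With each chromosome's shift removed by an offset, 93 genes were called up and 80 down on the 3 chromosomes in place of 214 and 53. Genes on these chromosomes are identified as such in what follows. The cause of the shift was not tested.

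Many genes changed by large factors. Past an absolute log2 fold change of 5, 114 genes rose and 130 fell, and 105 and 124 of these lay outside chromosomes 17, 18 and 19. Among genes with at least 10 normalized CPM in a line and libraries that do not overlap, the 10 largest rises and falls outside the 3 chromosomes and the 5 largest on them were examined.

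The 10 largest rises outside chromosomes 17, 18 and 19 come first. Gm525, a predicted gene, had no read in the wt libraries and 233, 224 and 180 reads in the Stat5a-/- libraries, which makes it at least 298-fold higher against a floor of 3 reads over the wt line. Tenm4, a teneurin of the plasma membrane, likewise had no read in wt and 136, 119 and 136 reads in Stat5a-/-, at least 183-fold higher. Separated libraries were a condition of the choice, for these genes and for the other large changes that follow.

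Pcdh11x, an X-linked protocadherin, went from 1 read in all wt libraries together to 403, 357 and 251 reads in the Stat5a-/- libraries. The ratio was 1419, with a 95% counting interval (exact binomial) from 254 to 56095. Stum, a membrane protein gene named after a fly mechanotransduction mutant, held 0.127, 0.152 and 0.231 normalized CPM in wt and 138, 129.7 and 165 in Stat5a-/- libraries. Its log2 fold change was 9.65 (standard error 0.25, edgeR adjusted p = 2.04e-11). Scn4b, a sodium channel subunit, reached 293, 259 and 348 normalized CPM from 1.21, 0.859 and 1.10 in wt, and Cdhr2, a cadherin-related protein, reached 140.0, 150.2 and 176 from 0.635, 0.556 and 0.289. These 4 genes were at or near 0 in each wt library, and their Stat5a-/- libraries were far above.

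Sox6, a transcription factor known from erythroid and cartilage development, rose from 0.254, 0.101 and 0.231 to 71.6, 76.5 and 70.9 normalized CPM. Mgll, the monoacylglycerol lipase, Kcng1, a potassium channel subunit, and Vrtn, a factor of vertebral patterning, each had 2 reads in all wt libraries together. Their ratios of Stat5a-/- to wt were 545, 366 and 317, with lower ends of the 95% counting interval at 150.4, 101 and 87.3. The ratios rest on very few reads on the wt side, while the reads on the Stat5a-/- side numbered between 127 and 288 per library.

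The 10 largest falls outside these chromosomes follow. Lingo3, a leucine-rich repeat membrane protein, held 434, 386 and 432 reads in the wt libraries and none in Stat5a-/-, at least 297-fold lower. Plxna2, a semaphorin co-receptor, held 65.9, 56.7 and 63.8 normalized CPM in wt and 0, 0.0814 and 0 in Stat5a-/- libraries, and Robo2, a receptor for Slit ligands, held 41.6, 42.7 and 40.4 and 0, 0.163 and 0. Their wt libraries lay close together and their Stat5a-/- libraries held at most 2 reads.

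Htra3, a secreted serine protease, had 2 reads in all Stat5a-/- libraries together against 702, 655 and 722 in wt. Uaca, a regulator of apoptosome activity, fell from 111, 106 and 109.6 to 0.489, 0.407 and 0.361 normalized CPM (log2 fold change -7.97, standard error 0.21, edgeR adjusted p = 2.14e-11). Gnai1, an inhibitory G-protein subunit, fell from 38.4, 47.9 and 40.3 to 0.0699, 0.244 and 0, and Osr2, a zinc-finger factor of limb and kidney development, from 38.96, 30.7 and 36.3 to 0.0699, 0.325 and 0. Usp9y, a Y-linked deubiquitinase, and Rag1 and Rag2 complete the 10 and are described with the sex-linked genes and with the B-lineage genes.

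On chromosomes 17, 18 and 19, the extreme genes far exceeded the shift of their chromosomes. Gldc (ENSMUSG00000024827.9, chromosome 19 from 30098449 to 30175418), the glycine decarboxylase of the mitochondrial glycine cleavage system, had no read in any wt library and 259, 213 and 206 reads in the Stat5a-/- libraries, at least 317-fold higher. Ston1 on chromosome 17, an endocytic adaptor, had 0, 1 and 1 reads in wt and 1022, 784 and 858 in Stat5a-/-. Klhl14 on chromosome 18, a B-cell expressed adaptor of a ubiquitin ligase, rose from 0.635, 1.01 and 1.33 to 211, 222 and 191 normalized CPM (log2 fold change 7.69, standard error 0.19, edgeR adjusted p = 2.04e-11).

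The other large rises were of uncharacterized transcripts. 4930426D05Rik on chromosome 18 held 0.381, 0.354 and 0.289 normalized CPM in wt and 51.3, 50.7 and 59.5 in Stat5a-/-, and 1700097N02Rik on chromosome 17 held 0.952, 1.72 and 1.56 and 39.4, 48.4 and 35.2. Genes could also fall far on these chromosomes. Garem1 on chromosome 18, an adaptor of growth factor signalling to ERK, held 274, 305 and 333 reads in wt and none in Stat5a-/- libraries, at least 217-fold lower. Vldlr on chromosome 19, a lipoprotein receptor, held 452, 607 and 554 reads in wt against 2, 1 and 0 in Stat5a-/-. Cul7 on chromosome 17 and Spire1 and Zfp516 on chromosome 18 also fell, with log2 fold changes of -4.88, -4.72 and -3.68.

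STAT5 target and feedback genes did not fall together in the line that lacks Stat5a. Of 18 such genes, all of which were tested, 5 rose and 1 fell, against the 7.75% and 6.49% of all tested genes, and the median log2 fold change was 0.16 compared with 0.01 over all genes. Of the 5 that rose, 2 lie on chromosome 17. Without wt replicate 1, or without Stat5a-/- replicate 1 or 2, 6 members were called up.

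Feedback inhibitors led the rises. Cish (ENSMUSG00000032578.7, chromosome 9 from 107296026 to 107302784), which blocks cytokine receptor signalling, held 16.9, 13.4 and 14.2 normalized CPM in the wt libraries and 93.98, 85.4 and 119 in the Stat5a-/- libraries. Every Stat5a-/- library lay far above the highest wt library, and the log2 fold change was 2.75 (standard error 0.23, edgeR adjusted p = 6.54e-07). Socs1, an inhibitor of Janus kinases, held 19.4, 12.6 and 14.96 in wt and 44.3, 51.6 and 70.8 in Stat5a-/- libraries, a log2 fold change of 1.83 (standard error 0.20, edgeR adjusted p = 1.04e-05). Its relative Socs3 was higher by 0.74, under the fold limit, and Socs2 held 258, 307 and 275 in wt and 315, 337 and 292 in Stat5a-/-, with overlapping libraries.

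Il2ra, the interleukin-2 receptor alpha chain and a textbook STAT5 target, rose from 12.8, 13.6 and 15.4 to 50.7, 45.2 and 50.7 normalized CPM (log2 fold change 1.81, standard error 0.12, edgeR adjusted p = 1.04e-07). Pim1, a survival kinase on chromosome 17, held 156, 119 and 128 in wt and 293, 334 and 392.1 in Stat5a-/-, and Lta, the cytokine lymphotoxin alpha on chromosome 17, held 205, 189.8 and 206 and 496, 512 and 552. Both were called in the plain comparison, with log2 fold changes of 1.34 and 1.37, and neither was past the fold limit once the shift of chromosome 17 was removed (0.78 and 0.81). Pim2 and Pim3 had log2 fold changes of 0.12 and -0.35 and were not called.

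Ccnd1, cyclin D1, was the 1 member that fell, from 87.8, 66.9 and 76.2 to 12.8, 13.5 and 19.5 normalized CPM (log2 fold change -2.34, standard error 0.18, edgeR adjusted p = 2.86e-07). Cyclin D2, which was more abundant, held 550.4, 523 and 487 in wt and 457, 446 and 428 in Stat5a-/- libraries and was not called. Cyclin D3, on chromosome 17, held 2079, 1453 and 1762 and 2919, 2986 and 4270.2, a log2 fold change of 0.94, under the fold limit. Of the D-type cyclins, Ccnd1 was the one that passed both limits with all libraries in the fit. A second member, Id1, an inhibitor of helix-loop-helix factors, had a log2 fold change of -0.97 (edgeR adjusted p = 0.0102), just under the fold limit. It passed that limit without wt replicate 2 or 3 (-1.05 in both), without Stat5a-/- replicate 1 (-1.08) or 2 (-1.01) and with a correction for GC content (-1.06), which made 2 falls.

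Myc held 1149.8, 1059 and 1165 normalized CPM in wt and 719.7, 723 and 857 in Stat5a-/- libraries, a log2 fold change of -0.55 (edgeR adjusted p = 0.00287), and Bcl6, a repressor that STAT5 is known to silence, held 10.1, 9.09 and 10.6 and 5.31, 6.83 and 5.23, with -0.77 (edgeR adjusted p = 0.00267). In both cases the Stat5a-/- libraries lay below all wt libraries without passing the fold limit. The survival genes Bcl2l1 and Mcl1 overlapped between the lines, with log2 fold changes of 0.15 and 0.09. The plot of the 18 genes by library places Cish, Socs1, Il2ra, Lta and Pim1 above wt and Ccnd1 below it.

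**Figure D2:**
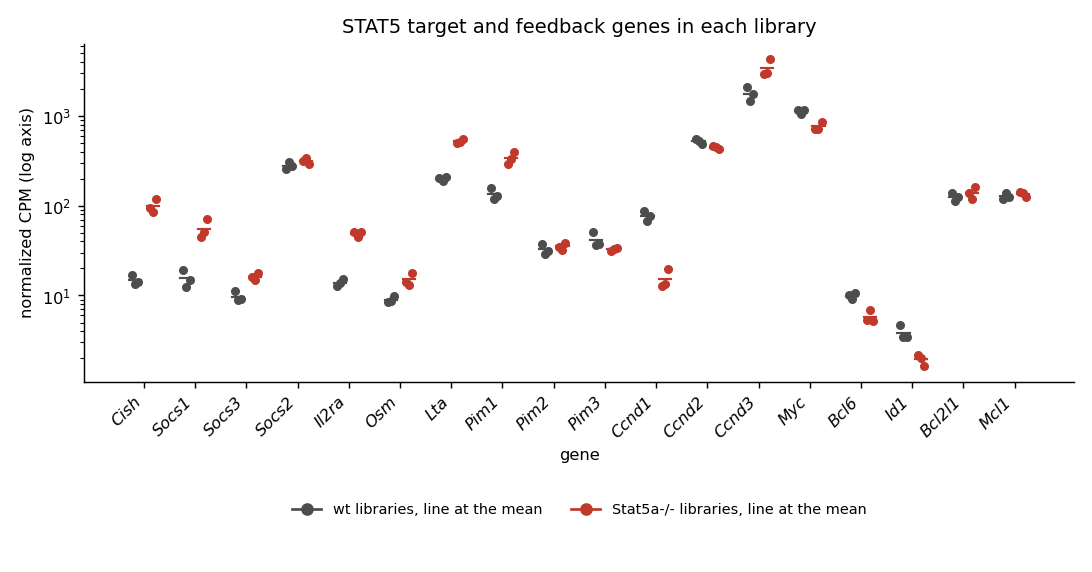
Normalized CPM (vertical log axis) of 18 STAT5 target and feedback genes (horizontal axis) in the 3 wt (grey) and 3 Stat5a-/- (red) libraries, with lines at the means. Cish reaches 119 in Stat5a-/- against at most 16.9 in wt, and Ccnd1 is at most 19.5 in Stat5a-/- against at least 66.9 in wt.

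The start regions of these genes were searched for the STAT palindrome TTCNNNGAA, which reads the same on both strands, in RefSeq promoter windows of GRCm38.p6 that run from 250 bases before to 50 bases after an annotated start. Windows were matched by symbol for 9444 of 13851 tested genes with a symbol and for 12 of the 18 STAT5 genes, too few for a comparison of shares over the list. Of all 12031 windows, 6.87% held the palindrome. It was present for Cish, Lta, Bcl6 and Socs3, of which 2 rose and 2 were not called. The windows of the 2 that rose are shown, as the called genes with the motif, 5′ to 3′ on the strand of the gene, in lower case with the palindrome in capitals. The Cish window spans chr9:107296409-107296708 on the plus strand and the Lta window chr17:35205302-35205601 on the minus strand. A match of letters is no evidence of binding, which was not measured here.

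Cish: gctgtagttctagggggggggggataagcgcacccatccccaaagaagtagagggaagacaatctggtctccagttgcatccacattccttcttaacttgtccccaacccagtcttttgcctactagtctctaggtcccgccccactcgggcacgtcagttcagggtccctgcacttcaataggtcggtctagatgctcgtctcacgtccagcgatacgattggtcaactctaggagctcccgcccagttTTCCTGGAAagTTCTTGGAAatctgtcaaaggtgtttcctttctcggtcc
Lta: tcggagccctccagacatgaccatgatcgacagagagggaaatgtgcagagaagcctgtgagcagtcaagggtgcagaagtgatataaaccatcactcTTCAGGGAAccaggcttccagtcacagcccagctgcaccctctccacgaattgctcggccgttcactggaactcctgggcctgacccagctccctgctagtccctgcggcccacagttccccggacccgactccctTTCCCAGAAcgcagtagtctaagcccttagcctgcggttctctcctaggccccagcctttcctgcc

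The Cish window held 2 palindromes that begin at bases 251 and 262, and the Lta window 2 that begin at bases 99 and 235, counted from 1 at the 5′ end.

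Receptors that feed into STAT5 changed in both directions. Of 22 cytokine and growth factor receptor genes, 14 were tested, 4 rose and 3 fell, beside 7.75% and 6.49% of all tested genes. The common beta chain of the interleukin-3, interleukin-5 and GM-CSF receptors, Csf2rb, held 80.4, 65.5 and 74.1 normalized CPM in wt and 223, 196 and 258 in Stat5a-/- libraries (log2 fold change 1.62, standard error 0.15, edgeR adjusted p = 1.69e-06). Its mouse duplicate Csf2rb2 rose alongside, from 23.8, 19.8 and 21.7 to 56.4, 62.1 and 76.5. These genes have near-identical sequences, so reads may be divided between them, but both lay above wt in every Stat5a-/- library.

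Il3ra, the interleukin-3 receptor alpha chain, rose from 5.33, 2.78 and 2.77 to 7.06, 7.89 and 10.9 normalized CPM, and Il5ra was called on 2, 8 and 3 reads in wt and 20, 5 and 16 in Stat5a-/- libraries, which overlap. With a correction for GC content, the log2 fold change of Il3ra was 0.99 and that of Il7r -0.99, just inside the fold limit. On the other side stood receptors of early lymphoid cells. Il7r, the interleukin-7 receptor alpha chain, fell from 324, 408 and 391 to 184, 188 and 151 (log2 fold change -1.10, standard error 0.14, edgeR adjusted p = 2.57e-05), Crlf2, which pairs with it as the TSLP receptor, fell by 1.34 on the log2 scale, and Flt3, a receptor tyrosine kinase of lymphoid progenitors, fell by 1.64.

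Few genes at the kinase end of the pathway were called. Among 16 genes for ABL, BCR and their adaptors, all tested, 1 rose, beside 7.75% of all tested genes, and 2 did without wt replicate 1. Reads on Abl1 and Bcr include any that stem from the BCR/ABL transgene as well as the mouse genes. Abl1 held 279, 231 and 238 normalized CPM in wt and 394, 373 and 506 in Stat5a-/- libraries, a log2 fold change of 0.77 (edgeR adjusted p = 0.00119) that is under the fold limit. Dok1, a docking protein that dampens ABL signalling, was the called gene, at 8.06, 6.92 and 7.80 in wt and 19.5, 15.3 and 20.2 in Stat5a-/-.

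Of 15 tested ERK output and feedback genes, 2 rose and 2 fell. These counts are near the share among all tested genes, 7.75% up and 6.49% down, and 3 fell without Stat5a-/- replicate 2 or 3, with the chromosome shift removed and with a correction for GC content. By adjusted p alone, 2 of the 15 were higher and 6 lower, beside 19.8% and 16.3% of all tested genes. Dusp4, a phosphatase of ERK, held 6.66, 5.35 and 5.31 normalized CPM in wt and 26.4, 21.8 and 31.5 in Stat5a-/- libraries (log2 fold change 2.20, standard error 0.16, edgeR adjusted p = 2.21e-07), and Spry1, an inhibitor of RAS signalling, rose from 17.9, 15.2 and 18.6 to 40.9, 39.2 and 48.3. In contrast, Spry4 fell from 34.8, 26.1 and 28.2 to 7.27, 6.83 and 8.84, and Egr1, an immediate early factor, from 149.8, 119.7 and 143 to 46.2, 57.5 and 59.2. Spry4 and Egr1 lie on chromosome 18 and so fell against the shift of their chromosome. Dusp5, on chromosome 19, and Dusp6, the most abundant members, had log2 fold changes of -0.10 and -0.43 and were not called, and with the shift of chromosome 19 removed Dusp5 was at -0.54 (edgeR adjusted p = 0.000957).

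Interferon-stimulated genes were mostly higher in the Stat5a-/- line. Of 66 tested interferon-stimulated genes, 21 rose and none fell, and the median log2 fold change was 0.79, compared with 0.01 over all tested genes. The 58 members outside chromosomes 17, 18 and 19 had a median of 0.75 and 18 rises, against 6.95% for all genes there. By adjusted p alone, 41 of the 66 were higher, beside 19.8% of all tested genes, and 1, beside 16.3%, was lower. This was Ifih1, a sensor of viral RNA, with a log2 fold change of -0.86 that was -1.17 without Stat5a-/- replicate 1. Markers of T cells also stood higher in the Stat5a-/- libraries, as given below, and their part in this result was not tested.

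Ifitm1, a membrane protein that restricts viral entry, held 3.11, 2.12 and 2.77 normalized CPM in wt and 121, 148 and 127 in Stat5a-/- libraries (log2 fold change 5.64, standard error 0.16, edgeR adjusted p = 3.27e-11). Its neighbour Ifitm3 rose from 1.08, 1.11 and 1.67 to 4.89, 6.83 and 4.96, while Ifitm2, which was more abundant in wt, held 163, 127 and 146 in wt and 92.2, 137 and 108 in Stat5a-/- and was not called. These genes have similar sequences, so their reads may be divided between them.

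Guanylate-binding proteins, which attack the vacuoles of intracellular pathogens, are encoded in a cluster on chromosome 3 and another on chromosome 5. Of those on chromosome 3, Gbp2 held 6.60, 7.47 and 7.51 normalized CPM in wt and 86.99, 78.4 and 68.6 in Stat5a-/- libraries (log2 fold change 3.44, standard error 0.14, edgeR adjusted p = 9.28e-10), and Gbp3 held 15.04, 17.98 and 18.1 and 103, 96.6 and 84.8. Gbp5 and Gbp7 rose by 1.87 and 1.56 on the log2 scale. Of those on chromosome 5, Gbp4, Gbp6, Gbp8 and Gbp9 had log2 fold changes of 0.78, 0.97, 0.30 and 0.46 and were not called. A difference between the clusters was not tested.

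Other members of the list were called too. Cmpk2, a mitochondrial nucleotide kinase, rose from 0.825, 2.02 and 1.91 to 12.2, 8.71 and 10.1, and Xaf1, a proapoptotic interferon-induced protein, from 7.42, 11.2 and 9.65 to 33.6, 41.01 and 31.4. Rsad2, the antiviral enzyme viperin, Ifit1bl1 on chromosome 19 and Oas1a, an oligoadenylate synthetase, rose by 1.48, 1.86 and 1.23 on the log2 scale, and Oas1a was at 0.90 without wt replicate 3. Isg15, Ifit1 on chromosome 19 and Mx1 had log2 fold changes of 0.96, 0.84 and 0.54 and were not called, and Ifit1 was at 0.41 with the shift of its chromosome removed. The 3 were weakly expressed, with Isg15 at 1.40, 0.960 and 0.866 in wt and 2.59, 1.71 and 1.89 in Stat5a-/- libraries. Isg15 passed the fold limit without wt replicate 1 (1.18) and without Stat5a-/- replicate 2 (1.07), Ifit1 without wt replicate 3 (1.09), and Gbp6 without wt replicate 3 (1.4998) and without Stat5a-/- replicate 3 (1.27). The test against a log2 fold change of 1 called 10 members up, and with 1 library left out between 20 and 25 were called.

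The transcription factors above these genes were mostly not called. Among the 9 interferon regulatory factors, 1 rose, near the 7.75% of all tested genes. Their median log2 fold change was 0.62, however, against 0.01 over all tested genes. By adjusted p alone, 4 of the 9 were higher and 1 lower, beside 19.8% and 16.3% of all tested genes. None was called up with a correction for GC content, and 2 were with TMM factors from genes outside chromosomes 17, 18 and 19. Irf7, the amplifier of the type I response, held 5.08, 6.77 and 6.24 normalized CPM in wt and 13.6, 11.8 and 11.5 in Stat5a-/- libraries, a log2 fold change of 1.02 that dropped to 0.92 without wt replicate 1 and to 0.92 without Stat5a-/- replicate 1. Irf1, a factor induced by interferon gamma, was higher by 0.99 and Irf4 by 0.82 (edgeR adjusted p = 2.87e-06 and 1.73e-05), both under the fold limit. Irf8, which is prominent in B cells, had a log2 fold change of -0.67 (edgeR adjusted p = 0.00145). Of the 13 interferon receptors, Janus kinases and STATs, none was called, and 3 were higher and 2 lower by adjusted p alone, near the 19.8% and 16.3% of all tested genes. Stat2, a partner in type I interferon signalling, had a log2 fold change of 0.25.

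The interferon response element was searched on both strands of the same promoter windows as GAAA, any 2 bases and GAAA again. It was found in 3.21% of all windows and in the windows of Gbp2 and Ifitm3, which are shown in the same way with the match in capitals. The Gbp2 window spans chr3:142620413-142620712 on the plus strand, where the match is on the opposite strand, and the Ifitm3 window chr7:141010695-141010994 on the minus strand. Windows were matched for 48 of the 66 genes, too few for a comparison of shares over the list. The element was present for 27 of the 48, of which 11 rose and 16, Isg15, Ifit1 and Ifitm2 among them, were not called.

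Gbp2: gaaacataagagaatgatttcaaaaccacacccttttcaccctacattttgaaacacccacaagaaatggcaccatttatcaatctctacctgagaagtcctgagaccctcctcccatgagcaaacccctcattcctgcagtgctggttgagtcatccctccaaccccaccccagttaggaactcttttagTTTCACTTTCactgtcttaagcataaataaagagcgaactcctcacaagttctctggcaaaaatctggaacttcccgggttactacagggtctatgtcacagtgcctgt
Ifitm3: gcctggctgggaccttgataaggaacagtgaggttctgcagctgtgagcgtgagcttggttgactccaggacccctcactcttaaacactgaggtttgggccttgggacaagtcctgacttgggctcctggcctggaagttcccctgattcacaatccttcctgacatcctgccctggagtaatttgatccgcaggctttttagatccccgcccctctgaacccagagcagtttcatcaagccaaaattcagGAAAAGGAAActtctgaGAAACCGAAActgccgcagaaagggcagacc

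Antigen presentation genes were higher as well, but many of them lie on chromosome 17. Of 16 genes for class I presentation, 6 rose, beside 7.75% of all tested genes. The 7 on chromosome 17 had a median of 1.34 and 5 rises, beside 14.5% of all genes on chromosomes 17, 18 and 19, and the 9 elsewhere had a median of 0.20 and 1 rise, beside 6.95%. H2-K1, a class I heavy chain, held 283, 268 and 277 normalized CPM in wt and 689, 739 and 770.1 in Stat5a-/- libraries, and H2-D1 held 186, 135 and 152 and 479.8, 466 and 632. Psmb9, an immunoproteasome subunit, rose from 39.2, 33.2 and 36.4 to 127, 132 and 147. Their Stat5a-/- libraries lay above all wt libraries. Once the shift of chromosome 17 was removed, H2-K1, Tap1 and Tapbp were no longer past the fold limit, and 3 members were called.

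Off chromosome 17, B2m, the light chain of class I molecules, held 1458, 1972 and 1778 normalized CPM in wt and 3105, 3447 and 2431 in Stat5a-/- libraries, a log2 fold change of 0.79 (edgeR adjusted p = 0.00134) under the fold limit. Nlrc5, the transactivator of class I genes on chromosome 8, rose from 34.4, 34.5 and 34.02 to 65.9, 66.6 and 84.9, a log2 fold change of 1.08 that was 0.92 without Stat5a-/- replicate 3. Its class II counterpart Ciita was barely expressed, with 0.317, 0.455 and 0.693 in wt and 0.699, 0.814 and 1.44 in Stat5a-/-, and was not called.

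Of 11 class II genes, 7 rose, and 10 of the 11 lie on chromosome 17 or 18, within the chromosomes on which 14.5% of all genes rose. H2-Ab1 held 4.57, 5.10 and 6.12 normalized CPM in wt and 21.8, 25.7 and 31.8 in Stat5a-/- libraries, and H2-DMa, which loads peptides onto class II molecules, held 3.24, 3.84 and 3.23 and 14.4, 16.6 and 15.1. Cd74, the invariant chain, encoded on chromosome 18, rose from 95.1, 91.1 and 87.6 to 173, 198 and 201, a log2 fold change of 1.06 that was 0.99 without Stat5a-/- replicate 3. After removal of the chromosome shift 4 members were called. The class I heavy chains H2-K1 and H2-D1 have similar sequences, so their reads may be divided between them.

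**Figure D3:**
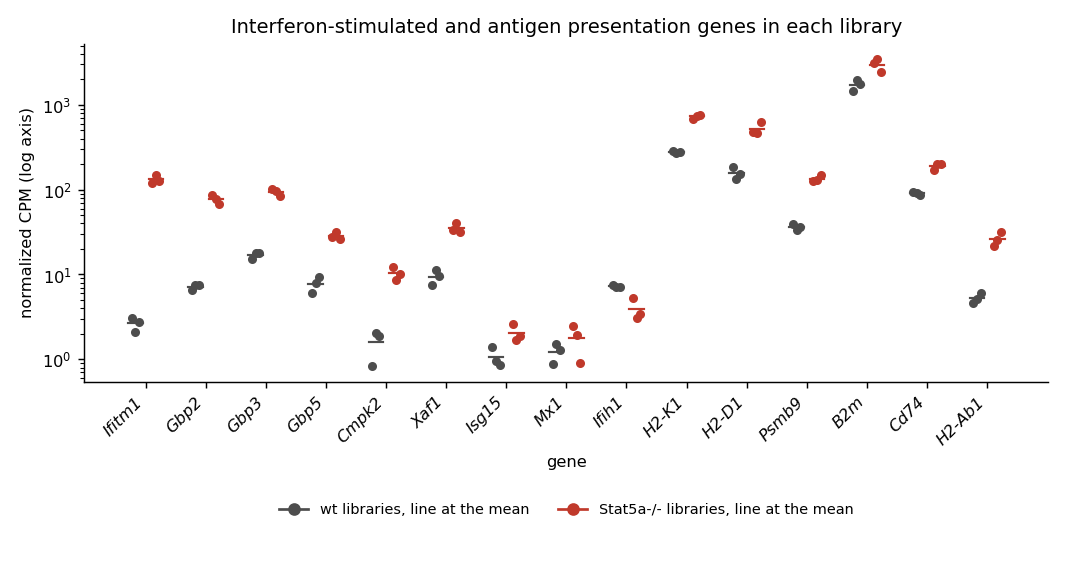
Normalized CPM (vertical log axis) of interferon-stimulated and antigen presentation genes (horizontal axis) in the 3 wt (grey) and 3 Stat5a-/- (red) libraries, with lines at the means. Ifitm1 goes from at most 3.11 to at least 121 and Gbp2 from at most 7.51 to at least 68.6, while Mx1 overlaps between the lines.

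Master regulators of the B lineage were expressed in both lines, while genes of V(D)J recombination fell. Pax5 held 1258, 1146 and 1247 normalized CPM in wt and 1089.8, 1186 and 1363 in Stat5a-/- libraries, and Ebf1 held 577, 631 and 591 and 594, 654 and 539. The libraries of the lines overlapped for both of these master regulators of B-cell identity. Of 19 B-lineage transcription factors, 3 rose, beside 7.75% of all tested genes, and none fell, while by adjusted p alone 4 were higher and 6 lower, with a list median of -0.0049. Ikzf3, which promotes the step from the large to the small pre-B cell, held 30.1, 36.1 and 37.9 in wt and 198, 180.0 and 215 in Stat5a-/- libraries, and Spib, an ETS factor of B cells, held 39.2, 38.6 and 37.3 and 179, 191 and 215. The third, Erg, had a log2 fold change of 1.07, which was 0.97 without Stat5a-/- replicate 3. Mef2c had a log2 fold change of -0.92, under the fold limit.

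All 3 genes of V(D)J recombination fell, beside 6.49% of all tested genes, and both Rag genes were nearly absent from the Stat5a-/- line. Rag1 (ENSMUSG00000061311.6, chromosome 2 from 101638282 to 101649501), which forms the V(D)J recombinase with Rag2, held 63.6, 67.1 and 63.4 normalized CPM in wt and 0.140, 0.244 and 0.0902 in Stat5a-/- libraries, and Rag2 (ENSMUSG00000032864.4, chromosome 2 from 101624718 to 101632529) held 30.3, 37.6 and 29.6 and 0.140, 0 and 0.0902. At most 3 reads of either gene were counted in a Stat5a-/- library, against at least 477 in each wt library. The log2 fold change of Rag1 was -8.59 (its standard error was 0.22, edgeR adjusted p = 2.13e-11), and for Rag2 the ratio of wt to Stat5a-/- reads was 412, with a 95% counting interval (exact binomial) from 141 to 1998. Dntt, which adds untemplated bases at the joints and lies on chromosome 19, fell from 30.1, 25.3 and 26.7 to 9.44, 8.46 and 8.57 (log2 fold change -1.63, edgeR adjusted p = 1.44e-06).

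Parts of the pre-B-cell receptor were higher without passing the fold limit. Of 13 genes for this receptor and its signalling, none was called, and 9 were higher by adjusted p alone, against 19.8% of all tested genes. Igll1 of the surrogate light chain held 608, 594 and 624 normalized CPM in wt and 1079.8, 955 and 1003 in Stat5a-/- libraries, Cd79a held 746, 678 and 715 and 1206, 1134 and 1469.8, and Cd79b held 633, 609.5 and 635 and 1069.9, 994 and 1082. Their log2 fold changes were 0.73, 0.83 and 0.74.

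Of 16 B-cell surface markers, 5 were called in either direction, beside 14.2% of all tested genes. Cd2 held 55.1, 55.96 and 54.2 normalized CPM in wt and 257, 289 and 282 in Stat5a-/- libraries (log2 fold change 2.33, standard error 0.10, edgeR adjusted p = 1.07e-09), Cd22, an inhibitory co-receptor, held 37.4, 35.05 and 35.7 and 98.5, 109 and 126, and Ly6d, a marker of B-lineage commitment, held 1.46, 1.57 and 1.62 and 10.1, 9.11 and 9.83. Bst1 rose by a log2 fold change of 1.85. Cd38, by contrast, fell from 78.2, 102 and 95.5 to 30.8, 28.7 and 22.5. In every case the libraries of the lines were clearly apart, as the plot of B-lineage genes shows.

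**Figure D4:**
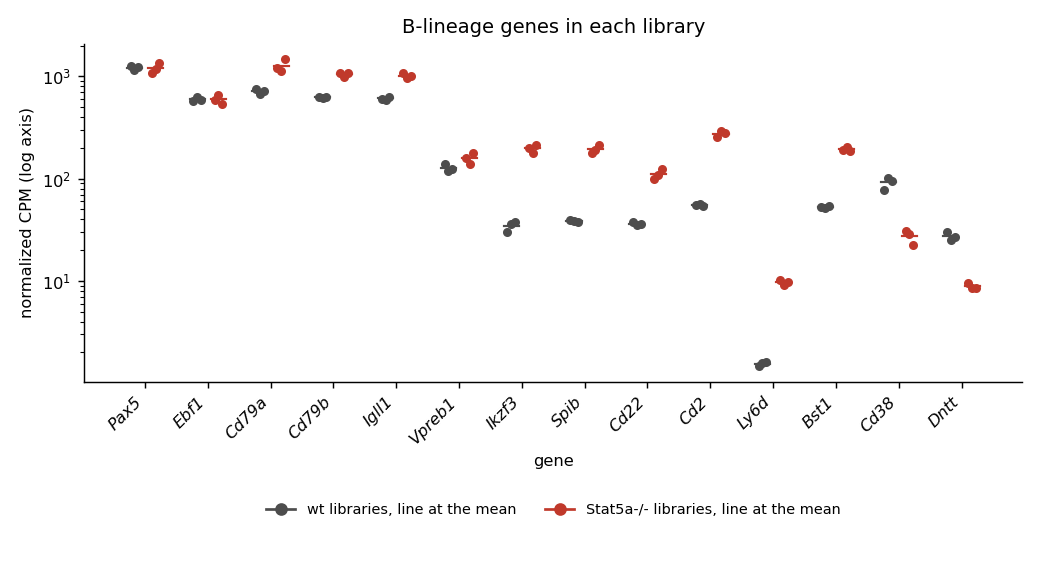
Normalized CPM (vertical log axis) of B-lineage genes (horizontal axis) in the 3 wt (grey) and 3 Stat5a-/- (red) libraries, with lines at the means. Pax5 and Ebf1 overlap between the lines, Ikzf3, Spib, Cd22, Cd2, Ly6d and Bst1 are higher and Cd38 and Dntt lower in Stat5a-/-.

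Immunoglobulin V segments were sparse. Of 346 segments, 183 had no read in the 6 libraries and 13 passed the filter on low counts, of which 6 rose and 3 fell, beside 7.75% and 6.49% of all tested genes. Ighv5-2 had 103, 107 and 82 reads in the wt libraries and none in Stat5a-/- libraries, while Ighv1-85 had none in wt and 30, 29 and 15 in Stat5a-/-. These 2 segments were each read in 1 of the 2 lines. A segment can pass the filter through the line where it is high, so the counts of called segments are a description. The count depended on the filter, with 13 up and 8 down without it and 1 up and 2 down among genes with a mean of at least 10 counts.

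Of 19 tested homing and adhesion genes, 7 rose and 1 fell, beside 7.75% and 6.49% of all tested genes. Itgal, the alpha chain of the integrin LFA-1, held 26.5, 38.7 and 37.9 normalized CPM in wt and 249.3, 234 and 279 in Stat5a-/- libraries (log2 fold change 2.88, standard error 0.15, edgeR adjusted p = 5.42e-09). Cxcr5, the chemokine receptor that guides B cells into follicles, held 1.84, 2.47 and 2.77 and 16.5, 16.03 and 17.7, and Itga6, an integrin that binds laminin, held 58.1, 66.3 and 63.1 and 223, 218 and 196. S1pr4, a receptor for sphingosine-1-phosphate, rose by a log2 fold change of 2.01. In all 4 genes the Stat5a-/- libraries lay above every wt library. Ccr2, a chemokine receptor of monocytes, was the 1 that fell, from 7.68, 8.33 and 8.09 to 3.99, 3.25 and 3.25. Without wt replicate 1, 5 members of the list were called up.

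Plexins and semaphorins, receptors and ligands of axon guidance that also act between immune cells, were called in both directions. Of 31 genes, 20 were tested, 5 rose and 6 fell, beside 7.75% and 6.49% of all tested genes. Besides Plxna2, Sema5a fell from 32.9, 37.2 and 36.04 to 0.210, 0 and 0.270 normalized CPM, and Sema3e from 61, 92 and 114 reads to 0, 1 and 0 reads. Both were near 0 in every Stat5a-/- library. Sema4a, in contrast, rose from 31.8, 35.8 and 36.7 to 210.1, 214 and 238 (log2 fold change 2.67, standard error 0.11, edgeR adjusted p = 1.18e-09), and Plxnd1 and Plxnb2 fell by 1.85 and 1.30 on the log2 scale.

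Among transcription factors of the HOXA, MEIS and PBX families, 5 of 18 were tested and 2 fell, beside 6.49% of all tested genes. Meis2, a homeobox cofactor, held 27.03, 27.1 and 25.8 normalized CPM in wt and 0.0699, 0.0814 and 0.361 in Stat5a-/- libraries, and Pbx3, which pairs with such factors, held 13.4, 16.8 and 14.1 and 0.629, 0.488 and 0.270. Both were reduced to a small remainder in all Stat5a-/- libraries. Of 13 tested regulators of G-protein signalling, 2 rose and 3 fell, beside the same background of 7.75% and 6.49%. Rgs8 rose from 23.4, 18.7 and 20.1 to 78.04, 77.5 and 94.6, and Rgs20 fell from 38, 61 and 50 reads in wt to 1, 0 and 0 in Stat5a-/-. These counts rest on few genes near the limits, since 4 rose without Stat5a-/- replicate 1, 1 rose without wt replicate 3 or Stat5a-/- replicate 3, and 1 fell without wt replicate 2 or Stat5a-/- replicate 2.

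Among cell cycle genes, Cdkn2a stood out. None of 24 genes for DNA replication and none of 24 for mitosis was called. By adjusted p alone, beside 19.8% higher and 16.3% lower among all tested genes, edgeR found 1 replication gene higher and 8 lower, with a list median of -0.17, and 4 mitosis genes higher and 1 lower, with a list median of -0.01. Of 6 tested CDK inhibitors, 1 rose and 1 fell, beside 7.75% and 6.49% of all tested genes. Cdkn2a (ENSMUSG00000044303.6, chromosome 4 from 89274471 to 89294653), whose locus encodes p16 and p19ARF, held 179.6, 155 and 161 normalized CPM in wt and 13.01, 13.3 and 15.1 in Stat5a-/- libraries. All wt libraries were an order of magnitude above the Stat5a-/- libraries, and the log2 fold change was -3.58 (standard error 0.11, edgeR adjusted p = 8.50e-11). Gene counts do not separate its transcripts. Cdkn2d, which encodes p19INK4D, rose by a log2 fold change of 1.09, and this was 0.92 with a correction for GC content.

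Trp53, which p19ARF stabilizes at the protein level, held 648, 575 and 607 normalized CPM in wt and 560.2, 561 and 641 in Stat5a-/- libraries, with overlapping values. Of 15 tested genes of the p53 list, 1 rose and 1 fell, near the 7.75% and 6.49% of all tested genes, and 2 rose without Stat5a-/- replicate 3 and with a correction for GC content. Pmaip1, the BH3-only protein NOXA on chromosome 18, rose from 0.381, 1.16 and 0.578 to 3.78, 3.25 and 3.52, and Phlda3, an inhibitor of AKT, fell from 7.55, 7.83 and 6.99 to 2.31, 1.06 and 2.43. Of 9 tested BCL2 family genes, 2 rose, beside the same 7.75%, Bok by 1.37 and Bak1 on chromosome 17 by 1.08. Bak1 was under the fold limit without wt replicate 2 (1.00), without Stat5a-/- replicate 3 (0.98) and after removal of the chromosome shift (0.52).

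Some genes of glycolysis and of the response to amino acid shortage fell. Of 21 tested genes of glycolysis and lactate export, 4 fell and none rose, beside 6.49% and 7.75% of all tested genes, with a median of -0.26. Aldoc, an aldolase isoform, held 37.2, 29.6 and 30.7 normalized CPM in wt and 4.20, 3.58 and 5.23 in Stat5a-/- libraries (log2 fold change -2.91, standard error 0.19, edgeR adjusted p = 8.07e-08), and Slc16a3, the lactate exporter MCT4, held 38.5, 23.99 and 29.9 and 4.75, 4.15 and 4.42. Slc2a3, a glucose transporter, and Pfkm, a phosphofructokinase isoform, fell by 1.80 and 1.33 on the log2 scale. The most abundant members, Aldoa and Ldha, held log2 fold changes of -0.33 and -0.43 and were not called.

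Of 22 genes of the ATF4 response, which is induced when amino acids run short, 4 fell, beside the same 6.49%, and none rose. By adjusted p alone, 14 were lower, against 16.3% of all tested genes, and the median was -0.47. Stc2, a secreted glycoprotein, held 72.8, 65.00 and 64.6 normalized CPM in wt and 17.3, 17.01 and 17.4 in Stat5a-/- libraries, and Trib3, a pseudokinase induced by ATF4, held 92.96, 60.8 and 67.98 and 23.8, 24.3 and 27.6. Chac1, which degrades glutathione, and Cth, which makes cysteine, fell by 1.12 and 1.41 on the log2 scale. Atf4 itself had a log2 fold change of -0.45 and was not called.

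Serine, glycine and folate metabolism gave 1 rise, Gldc, and 1 fall among 19 tested genes, near the 7.75% and 6.49% of all tested genes. By adjusted p alone, 3 of the 19 were higher and 7 lower, beside 19.8% and 16.3% of all tested genes. Psat1, a serine synthesis enzyme on chromosome 19, fell from 480.2, 475 and 557 to 223, 230.0 and 215 normalized CPM, against the shift of its chromosome. None of 23 cholesterol synthesis genes and none of 23 lysosomal genes was called, where adjusted p alone gave 6 higher and 0 lower for cholesterol synthesis and 5 higher and 4 lower for the lysosome, beside 19.8% and 16.3% of all tested genes. With 1 library left out, 1 cholesterol gene was called up without wt replicate 2, 1 lysosomal gene was called up without wt replicate 1, and 1 lysosomal gene was called down without wt replicate 2 and 1 without Stat5a-/- replicate 3. Of 11 DNA methylation and Polycomb genes, 2 rose, beside 7.75% of all tested genes, with Tet1, which oxidizes 5-methylcytosine, at 3.55, 5.76 and 4.22 in wt and 13.5, 8.63 and 10.2 in Stat5a-/- libraries. The other, Tet3, had a log2 fold change of 1.01, just past the limit. It was under the limit without wt replicate 2 (0.98) or 3 (1.00), without Stat5a-/- replicate 3 (0.87), with DESeq2, with RLE scaling, with the 6 libraries alone, with no filter and with a correction for GC content (0.86), and past it without each of the other 3 libraries. Without wt replicate 1, 3 members of the list were called up.

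The chromosomal shift was visible in housekeeping complexes. The 10 ribosomal protein genes on chromosomes 17, 18 and 19 had a median log2 fold change of 0.72, against 0.04 for the 72 elsewhere, and the 11 subunits of oxidative phosphorylation on these chromosomes had a median of 0.54, against -0.03 for the 66 elsewhere. Of the 11 subunits, 9 were higher by adjusted p alone, as were 9 of the 10 ribosomal protein genes, beside 53.1% of all genes on these chromosomes. Of all 82 tested ribosomal protein genes, 2 passed both limits, Rps14 and Rpl36, both on these chromosomes, and neither did after removal of the shift or with a correction for GC content. Rps14 also lost the call without wt replicate 2 (0.88) and without Stat5a-/- replicate 3 (0.81). No oxidative phosphorylation subunit of 77, none of the 8 tested members of a list of 13 mitochondrially encoded genes and 1 of 14 NF-kappaB genes was called, the last being Nfkbie on chromosome 17, which was also lost after removal of the shift (0.62). By adjusted p alone, 10 subunits were higher and 7 lower, which are lower shares than the 19.8% and 16.3% of all tested genes, 1 subunit was called down without Stat5a-/- replicate 1, and 2 of the 8 mitochondrially encoded genes were higher. Of all 16 tested genes of the mitochondrial genome, 4 rose, beside 7.75% of all tested genes, the tRNA genes mt-Tq, mt-Ta, mt-Tc and mt-Tp, with log2 fold changes of 1.21, 1.07, 1.76 and 1.04. Of these, mt-Tq was under the fold limit without wt replicate 1 (0.94), mt-Tp without wt replicate 3 (0.92) or Stat5a-/- replicate 2 (0.80), and mt-Ta lost the call without wt replicate 1 or 3, without Stat5a-/- replicate 1 or 2 and with a correction for GC content.

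**Figure D5:**
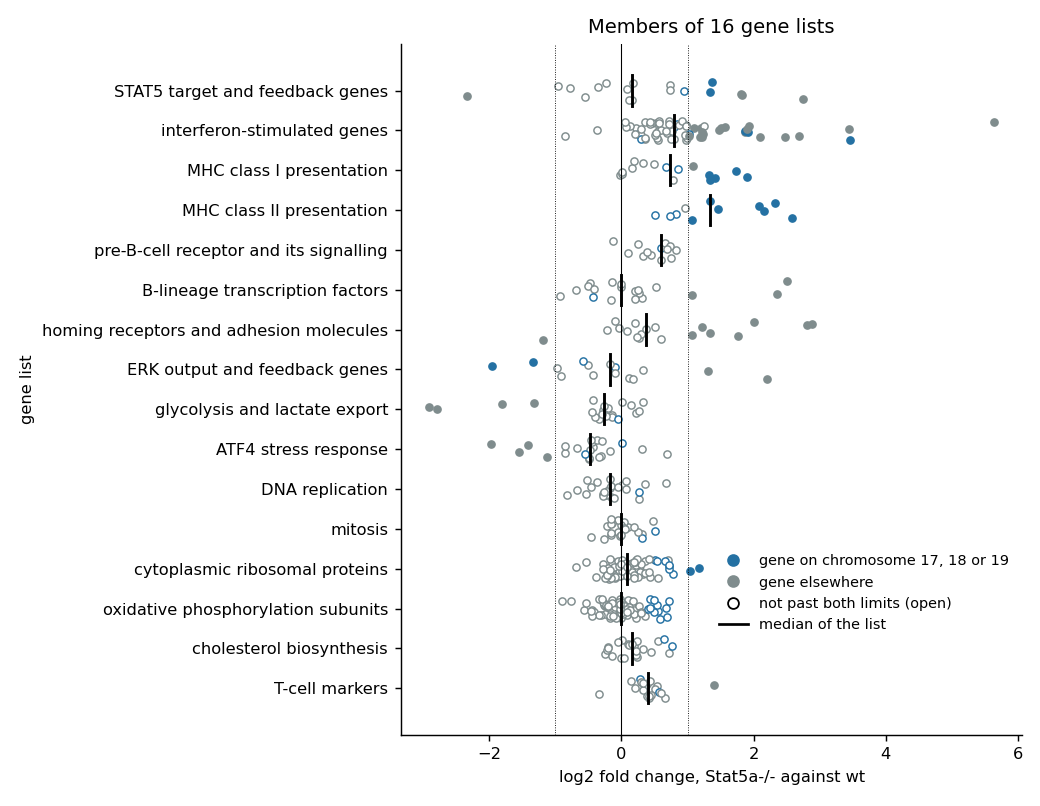
Log2 fold change of Stat5a-/- over wt (horizontal axis) for each tested member of 16 gene lists (rows), with genes on chromosomes 17, 18 and 19 in blue, all others in grey, called genes as filled points and a bar at the median of each list. Filled interferon-stimulated genes all lie above 1 and reach 5.64, the DNA replication and mitosis lists hold no filled point, and the glycolysis list has 4 filled points on the left.

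Markers of other cell types were examined for a change in the makeup of the cultures. The 20 T-cell markers summed to between 947 and 1321 normalized CPM in the wt libraries and between 1469 and 1730 in the Stat5a-/- libraries, and none was at 0. Of these markers, 1 rose, beside 7.75% of all tested genes, and 8 were higher by adjusted p alone, beside 19.8%. Lck, a SRC kinase of T cells, held 28.6, 38.5 and 38.3 in wt and 96.99, 89.8 and 90.6 in Stat5a-/- libraries, and Cd3e held 127, 175 and 159 and 221, 237 and 196. In bulk RNA, a change in the number of cells of a type and a change in RNA per cell cannot be told apart. The 20 myeloid markers summed to between 178 and 230 in wt and between 286 and 313 in Stat5a-/- libraries, with Ctsg at 0. Of the 8 tested, 1 rose (Fcgr3) and 1 fell (Cebpb), beside 7.75% and 6.49% of all tested genes. The 9 NK-cell markers summed to between 76.3 and 112 in wt and between 102 and 129 in Stat5a-/-, and 1 of the 7 tested fell (Klrb1c), beside 6.49%. The erythroid, megakaryocyte and mast cell markers summed to at most 15.9 and the stromal markers to at most 127, and 4 of the 14 former and 3 of the 9 latter had no read in the 6 libraries, among them Fcer1a, Mcpt8, Pf4, Col3a1, Dcn and Pdgfra.

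Sex-linked genes set the lines apart. Xist, the RNA that coats the inactive X chromosome, held 9.45, 11.9 and 12.3 normalized CPM in the wt libraries and 2113, 2134 and 1819 in the Stat5a-/- libraries. The Y-linked Ddx3y held 23.7, 35.4 and 29.6 and 7.34, 5.21 and 5.05, and Usp9y 20.8, 29.1 and 25.2 and 0, 0.0814 and 0. Kdm5d, Uty and Eif2s3y fell by 2.01, 2.82 and 1.81 on the log2 scale. The wt libraries thus carried mainly Y-linked transcripts and the Stat5a-/- libraries mainly Xist, with lower but present reads of most Y-linked genes. The sex of the donor mice therefore cannot be told apart from the genotype in this comparison.

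The Stat5b-/- line gives a further reference for single genes, with the limit that both knockout comparisons share the wt libraries. Tested directly, 914 genes were called higher and 666 lower in Stat5a-/- than in Stat5b-/- (6.6% and 4.81% of tested genes). Among genes with at least 10 normalized CPM whose Stat5a-/- libraries lay outside all 6 others, 158 rose and 109 fell against both lines. How many tested genes met the expression condition is not given. The 158 and 109 are therefore a description without a share, and whether they are many cannot be judged from them.

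The largest of these rises were Gldc, Gm525, Ston1, Pcdh11x and Stum. Gldc had no read in the Stat5b-/- libraries either, and Stum held 0.0686, 0.137 and 0.381 normalized CPM there, with a log2 difference of Stat5a-/- from Stat5b-/- of 9.51 (edgeR adjusted p = 6.15e-11). Gm525, in contrast, held 3.36, 3.62 and 6.17 in Stat5b-/-, between wt and Stat5a-/-. The largest falls were Htra3, Rag1, Rag2, Uaca and Osr2, all of which were also reduced in Stat5b-/-. Rag1 held 0.480, 0.683 and 0.838 there, against 0.140, 0.244 and 0.0902 in Stat5a-/-, a log2 difference of -1.999 (edgeR adjusted p = 0.0032).

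The 5 STAT5 targets that rose in Stat5a-/- were higher there than in Stat5b-/- as well. They were picked for high values in the same Stat5a-/- libraries, so the direct comparison is no separate evidence for them. Of the 18 list members, 0 were called higher and 5 lower in Stat5b-/- than in wt, with a median log2 fold change of -0.24. The shares of all tested genes were 10.6% and 8.44%. Cish held 38.9, 31.3 and 18.4 normalized CPM in Stat5b-/- libraries, and the log2 difference of Stat5a-/- from Stat5b-/- was 1.75 (edgeR adjusted p = 4.57e-05). Socs1 held 31.7, 25.7 and 21.9 and differed by 1.07 (edgeR adjusted p = 0.00114), and Il2ra held 12.8, 11.3 and 14.3 and differed by 1.93 (edgeR adjusted p = 1.02e-07). Lta and Pim1, both on chromosome 17, differed by 3.38 and 2.11 (edgeR adjusted p = 1.60e-09 and 2.85e-07). Myc held 329.7, 305 and 247 in Stat5b-/-, below both wt and Stat5a-/-. Itga6 held 63.3, 53.1 and 61.4, close to its wt values, so that its rise passed the direct test too (1.84, edgeR adjusted p = 3.05e-08). Among interferon genes, Ifitm1 was higher in Stat5a-/- by 2.93 and Irf7 lower by -1.32 (edgeR adjusted p = 2.74e-09 and 1.09e-05). In the interferon-stimulated list, 54 members were called higher and 1 lower in Stat5b-/- than in wt, with a median of 1.56, where 10.6% and 8.44% of all tested genes were called higher and lower. The corresponding values for Stat5a-/- were 21 members higher, none lower and 0.79, where 7.75% of all tested genes rose and 6.49% fell. The T-cell markers also stood higher in Stat5b-/-, with sums of 2195 to 3162 normalized CPM against 1469 to 1730 in Stat5a-/-. Of these 20 markers, 19 were called higher in Stat5b-/- than in wt. Their part in the difference between the lines was not tested.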

How the data were processed

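Polyadenylated RNA of 1 cell line per genotype was sequenced in 3 technical replicates (SENSE mRNA-seq libraries, 50 bp single-end reads). The authors trimmed the reads with Trimmomatic, aligned them with STAR to GRCm38 and deposited raw counts per GENCODE M13 gene from featureCounts 1.5.1, summed over exons without strand. Here, counts of all 9 libraries were filtered (filterByExpr), scaled (TMM) and fitted with edgeR 4.0.16 in R 4.3.3 (quasi-likelihood, ~0 + genotype), with Benjamini-Hochberg adjustment over 13852 of 50686 genes. Genes were called at an adjusted p under 0.05 and an absolute log2 fold change above 1. Depth ranged from 11948136 to 19016396 counted reads. Intervals and floors (3 reads over a line) cover counting error only. DESeq2 1.42.0, other scalings and filters, offsets, a replicate block and left-out libraries were alternatives, and scripts were tested on simulated data. The comparison, the gene lists and chromosomes 17, 18 and 19 were chosen with earlier results of these data known.

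Named genes were Stat5a and Stat5b, the 10 largest rises and falls with separated libraries and a mean of at least 10 normalized CPM outside chromosomes 17, 18 and 19 and the 5 largest on them, the 5 largest that also differed from Stat5b-/-, all tested STAT5 targets and interferon regulatory factors, B-lineage markers, and of each list up to 4 called members and 2 abundant uncalled ones, which gave 207 genes. A further 35 genes were named after their values were seen: Cd22, Cd74, Ciita, Gbp3 to Gbp9, Ifih1, Ifit1, Ifitm3, Il3ra, Il7r, Crlf2, Isg15, Mef2c, Mx1, Nlrc5, Stat2, Xaf1, Tapbp, Ccr2, Eif2s3y, Sema4a, Plxnd1, Plxnb2, Rsad2, Oas1a, Ifit1bl1, mt-Tq, mt-Ta, mt-Tc and mt-Tp. Some items are not reported here. Promoter windows came from RefSeq (GRCm38.p6).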

Additional observations from a re-analysis of the deposited data

Results flagged for a closer look

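Of the named genes, 4 were called in opposite directions in the knockout lines against the shared wt libraries, and the direct comparison of the knockout lines was also past the threshold (edgeR, quasi-likelihood, Benjamini-Hochberg adjusted). Dusp4, the ERK phosphatase, held 6.66, 5.35 and 5.31 normalized CPM in wt, 26.4, 21.8 and 31.5 in Stat5a-/- and 0.754, 0.752 and 0.838 in Stat5b-/- libraries, and its log2 difference of Stat5a-/- from Stat5b-/- was 5.07 (edgeR adjusted p = 2.10e-09). Lta, lymphotoxin alpha on chromosome 17, held 496, 512 and 552 in Stat5a-/- and 61.3, 46.3 and 41.6 in Stat5b-/- libraries, a log2 difference of 3.38 (edgeR adjusted p = 1.60e-09). Csf2rb2 held 56.4, 62.1 and 76.5 in Stat5a-/- and 11.7, 9.77 and 9.98 in Stat5b-/- libraries, a log2 difference of 2.63 (edgeR adjusted p = 1.97e-08), with the limit that its sequence is nearly that of Csf2rb. Dntt went the other way, with 9.44, 8.46 and 8.57 in Stat5a-/- and 56.6, 68.7 and 79.5 in Stat5b-/- libraries and a log2 difference of -2.95 (edgeR adjusted p = 7.75e-09). In each case the 3 libraries of each knockout line lay on opposite sides of the wt libraries.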

How the results depend on the processing

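Counts of called genes stayed within 1.5 times of the reported ones (1074 up, 899 down) with DESeq2 (1033 and 882), RLE scaling (1051 and 909), TMM factors from genes outside chromosomes 17, 18 and 19 (1158 and 860), no filter (1204 and 1118), a mean of at least 10 counts (990 and 822), the 6 libraries alone (1022 and 901) and a GC correction chosen after seeing the data (1013 and 943). Testing each gene against a log2 threshold of 1 called 636 up and 581 down, with 107 up on chromosomes 17, 18 and 19 and 529 up and 544 down elsewhere. Adjusted p alone called 2739 up and 2254 down, with 781 and 81 on these chromosomes and 1958 and 2173 elsewhere. The median log2 fold change of chromosomes 17, 18 and 19 minus elsewhere was 0.40 with no filter and, by construction, 0.0016 with the shift removed, which left 93 up and 80 down there. Leaving out 1 library gave 1003 to 1123 up and 884 to 962 down, 193 to 226 up and 54 to 60 down on the 3 chromosomes, 810 to 897 up and 830 to 902 down elsewhere, a median difference of 0.49 to 0.51 and a Stat5a log2 fold change of -1.91 to -1.71. Same-numbered wt and Stat5a-/- libraries did not deviate together (correlations of -0.28, 0.22 and -0.02 across genes). Differently numbered ones had correlations from -0.43 (wt replicate 2 with Stat5a-/- replicate 3) to 0.39 (wt replicate 1 with Stat5a-/- replicate 3). Deviations within the lines went with GC content, with correlations from -0.50 in wt replicate 2 to 0.54 in Stat5a-/- replicate 3. With a replicate block 1060 genes were called up and 881 down, or 1004 and 932 with GC correction. Of 135 called named genes, 35 lost the call in some setting and none changed sign. The spread is that of technical replicates of 1 line each, so differences between lines other than the genotype cannot be told apart from it.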
